A study of Caenorhabditis elegans with 64 samples.

Results

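A set of 7 histone genes was followed through the small RNA and mRNA libraries of a *Caenorhabditis elegans* study of *simr-1*: *htz-1*, *hcp-3*, *cpar-1*, *his-24*, *his-71*, *his-72* and *hil-1*. They were listed by name, as genes for histone variants and linker histones, and no threshold on a measured value entered the rule. All 7 were present among the 31106 genes of the small RNA tables and, under their sequence names (R08C7.3, F58A4.3, F54C8.2, M163.3, F45E1.6, Y49E10.6 and C30G7.1), among the 45904 names of the mRNA tables. Whole worms at day 1 of adulthood were compared between *simr-1(cmp36)* mutants (strain USC863) and wild-type animals (N2), grown at 20°C or for 1, 2, 7 or 10 generations at 25°C. Each of these 10 groups had 2 small RNA libraries and 3 mRNA libraries. In addition, 1 small RNA library was made at 20°C from each of 14 strains: *mut-16(pk710)*, *nyn-2(tm4844); nyn-1(tm5004)*, *wago-1(tm1414)*, *rde-8(tm2252)*, *rsd-2(pk3307)*, *simr-1(cmp36)*, *simr-1(cmp36); hpo-40(cmp46)*, *hpo-40(cmp46)*, *hgo-1(tm4989)*, F37C4.5*(ok3454)*, Y57G11C.3*(cmp47)*, C33G3.6*(cmp44)*, *math-33(ok2974)* and wild-type. Only 1 *simr-1* allele was profiled. The labels state biological replicates for the mRNA libraries but not for the small RNA libraries, so small RNA p-values measure only the spread between these samples, which may be technical.

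Histone variants replace the canonical core histones at particular places in the genome or outside of DNA replication. *htz-1* encodes H2A.Z, a variant of H2A found around transcription start sites. *hcp-3* and *cpar-1* encode CENP-A proteins, the H3 variants that mark centromeres, which in *C. elegans* extend along the whole chromosome, and *hcp-3* is the copy on which chromosome segregation depends. *his-71* and *his-72* encode H3.3, the H3 variant deposited independently of replication, while *his-24* and *hil-1* encode a linker histone H1 and an H1-like protein, which bind the DNA between nucleosomes. Most adult *C. elegans* small RNAs antisense to genes are 22G-RNAs, made by RNA-dependent RNA polymerases on mRNA templates. They are bound by Argonaute proteins of the CSR-1 pathway, whose targets include many germline-expressed genes, or of the WAGO pathway, which depends on the *mutator* complex nucleated by MUT-16. *simr-1* encodes a Tudor domain protein that acts in small RNA production downstream of piRNAs.

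In the WS258 annotation of the small RNA tables, *htz-1* (WBGene00019947) lies on chromosome IV at 4445990-4446997 on the plus strand. *hcp-3* (WBGene00001831) lies on chromosome III at 9615306-9616470 on the minus strand, and *cpar-1* (WBGene00010036) on the same chromosome at 9434057-9435100 on the plus strand. *his-72* (WBGene00001946) is also on chromosome III, at 12367474-12369050 on the minus strand, whereas *his-71* (WBGene00001945) is on chromosome X at 7981382-7982070 on the minus strand. *his-24* (WBGene00001898) is on chromosome X at 14490094-14491115 and *hil-1* (WBGene00001852) on chromosome V at 14949777-14952796, both on the plus strand. Small RNA reads were counted on exons without regard to strand. Exons of 3 of the genes overlapped a gene on the opposite strand: *hcp-3* shared 27 bases with F58A4.6, *cpar-1* shared 18 bases with *emb-30*, and *his-24* shared 70 bases with M163.16 and 55 bases with M163.19. Reads from these stretches cannot be assigned to either partner.

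The pairs of related genes are shown here because reads from identical stretches could not be told apart. Over their coding sequences *his-71* and *his-72* had 355 of 408 bases in common (87.0%), but the longest identical run was 23 bases. The first 60 coding bases of both, read from the genome at WS258 coordinates chrX:7981995-7982054 and chrIII:12368098-12368157 (both minus strand), differed at 7 positions, which are in capitals.
*his-71*: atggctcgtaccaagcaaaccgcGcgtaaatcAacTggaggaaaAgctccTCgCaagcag
*his-72*: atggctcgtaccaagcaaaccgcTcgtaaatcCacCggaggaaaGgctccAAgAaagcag
*hcp-3* and *cpar-1* shared 440 aligned bases of the 783-base *cpar-1* coding sequence (56.2%), and their longest identical run was 55 bases. A stretch of 60 bases that lies within a single exon of both genes and covers most of this run differed at 4 positions (capitals). It is at chrIII:9615601-9615660 on the minus strand for *hcp-3* and at chrIII:9434782-9434841 on the plus strand for *cpar-1*.
*hcp-3*: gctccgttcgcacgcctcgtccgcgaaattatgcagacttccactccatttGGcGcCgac
*cpar-1*: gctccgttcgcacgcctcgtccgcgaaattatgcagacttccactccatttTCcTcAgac
Of all 22-base windows in the exons, 11.2% in *his-71*, 12.4% in *his-72*, 8.28% in *hcp-3*, 9.47% in *cpar-1*, 4.56% in *his-24*, 0.655% in *htz-1* and 0% in *hil-1* occurred elsewhere in the genome. Most of each gene could therefore be read uniquely at the length of a 22G-RNA. The shared windows of *his-72* lay mainly in other histone genes, such as *his-17* and *his-49* (48 windows each) and *his-40* (45), and only 7 in *his-71*. Those of *his-71* also lay mainly in *his-17* and *his-49* (31 each). The part of reads from these other copies in the counts was not tested.

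The libraries held between 2835252 and 12893224 counts for the replicated small RNAs, between 2392511 and 50329478 for the single small RNA libraries and between 8055126 and 38633453 for mRNA. *simr-1* mRNA was lower in every mutant library, at 6.23 to 29.1 counts per 1000000 (CPM) in 15 *simr-1* libraries against 45.3 to 230 CPM in 15 wild-type libraries. A set of 9 mRNA libraries stood apart from the other 21: wild-type generation 1, wild-type generation 2 and *simr-1* generation 2 had summed levels of 7 oocyte markers (*oma-1*, *oma-2*, *puf-5*, *rme-2*, *cbd-1*, *perm-2* and *egg-1*) of 2007 to 3765 CPM, against 7384 to 9821 CPM in all others. At generation 1 the oocyte sum was 8427 to 8829 CPM in *simr-1* and 2049 to 2454 CPM in wild-type, the sum of 6 germline markers was 2695 to 2824 CPM in *simr-1* and 1700 to 1816 CPM in wild-type, and the sum of 4 muscle markers was 1047 to 1255 CPM in *simr-1* and 2121 to 2634 CPM in wild-type. The germline sum also differed at generation 10, among the other 21 libraries, with 2420 to 2556 CPM in *simr-1* and 1645 to 1852 CPM in wild-type. Markers of early embryos were near 0 throughout (summed level of 6 genes at most 7.21 CPM). In whole worms, fewer cells of a type and less RNA per cell cannot be told apart. The same groups also stood apart in the small RNA libraries, where 41.1% to 43.5% of mapped reads fell on genes in wild-type generations 1 and 2 and 45.3% to 50.9% in *simr-1* generation 2, against 58.7% to 69.4% in the other groups.

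At 20°C the 7 genes differed widely in both kinds of RNA, and the orders were not the same. Per kilobase of exon, small RNAs in wild-type were highest at *his-24* (1518 reads per 1000000 genome-mapped reads, RPM, per kb), followed by *hcp-3* (657), *his-72* (73.4), *cpar-1* (65.3), *htz-1* (24.1), *his-71* (4.83) and *hil-1* (0.285 RPM per kb). Neighbours in this order did not overlap in the 2 wild-type libraries, but the gap between *his-72* and *cpar-1* was smaller than the spread of *cpar-1*. Per kilobase of exon, wild-type mRNA was highest for *htz-1* (468 CPM per kb), followed by *his-72* (321), *hcp-3* (123), *cpar-1* (88.7), *his-24* (24.4), *his-71* (20.1) and *hil-1* (2.91 CPM per kb), with *his-71* inside the range of the 3 *his-24* values. *his-24* thus led the small RNA order but was among the 3 lowest in mRNA, whereas *htz-1* led in mRNA. The members of the H3.3 pair were unlike each other: *his-72* was above *his-71* at 20°C in both mRNA and small RNAs. *hil-1* had at most 7 small RNA reads in any of the 20 replicated libraries and passed the count minimum in 6 of the 13 comparisons between pairs of groups.

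In *simr-1* mutants, small RNAs from the CENP-A genes, H2A.Z and *his-72* were above wild-type at every temperature and generation, but only some of the differences passed the test. A gene was called at an adjusted p of at most 0.05 and a fitted change of at least 2-fold, with the further condition for small RNAs that 1 of the groups averaged 10 RPM or more. At 20°C no member was called by edgeR or by DESeq2, where 7.27% of all genes tested were, although 3 of 7 had an unadjusted p under 0.05. *hcp-3* small RNAs were at 793 and 777 RPM in *simr-1*, against 665 and 667 RPM in wild-type (log2 fold change 0.15, SE 0.031, adjusted p = 0.00114, edgeR). *his-72* was at 64.5 and 67.3 RPM in *simr-1*, against 45.9 and 47.9 RPM in wild-type (0.41, SE 0.065, adjusted p = 0.000128), and *cpar-1* at 80.5 and 82.3 RPM in *simr-1*, against 55.6 and 61.5 RPM in wild-type (0.39, SE 0.063, adjusted p = 0.000134). These 3 differences passed the p-value limit but were far below 2-fold. The other members were at 0.21 (*htz-1*), 0.03 (*his-24*), 0.10 (*his-71*) and 0.48 (*hil-1*), none past the p-value limit.

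**Figure D1:**
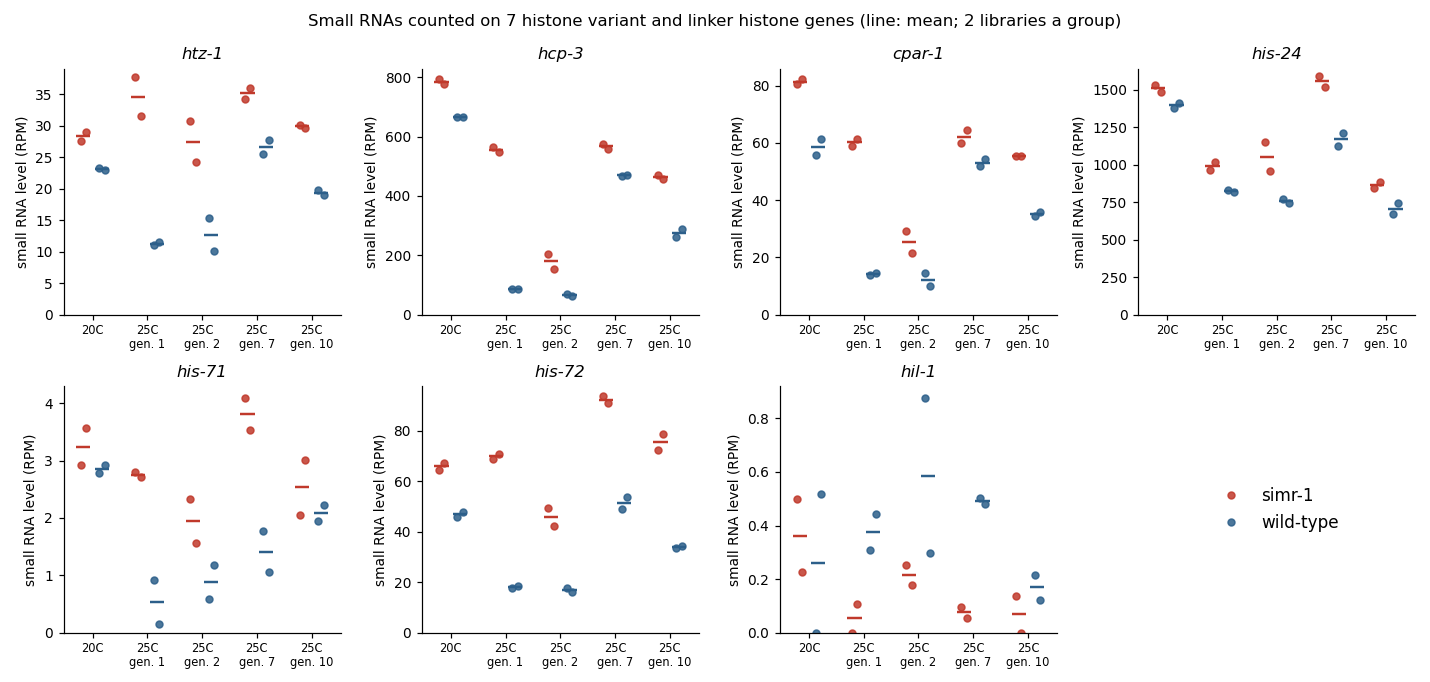
Small RNA level (RPM, linear axis) of each member by temperature and generation, with *simr-1* in red left of wild-type in blue. Points are single libraries and the line is the mean of 2 libraries. For *hcp-3* the wild-type libraries of generations 1 and 2 lie at 63.8 to 87.0 RPM, below all other libraries.

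The largest differences between genotypes were at generation 1 at 25°C, where small RNAs from 4 of the 6 members tested rose in *simr-1* and none fell, against 17.5% of all genes that rose and 9.18% that fell. *hcp-3* small RNAs were at 563 and 549 RPM in *simr-1*, against 87.0 and 86.5 RPM in wild-type (log2 fold change 2.2, SE 0.050, adjusted p = 3.77e-11). *cpar-1* was at 59.0 and 61.5 RPM in *simr-1*, against 14.0 and 14.6 RPM in wild-type (1.61, SE 0.095, adjusted p = 5.08e-08). The CENP-A genes therefore moved in the same direction. All 77 *cpar-1* windows found elsewhere in the genome lie in *hcp-3*, whose small RNA level was much higher. The part of the *cpar-1* counts that came from *hcp-3* reads was not tested, so the shared direction cannot be taken as independent. *his-72* was at 68.9 and 70.9 RPM in *simr-1*, against 17.6 and 18.5 RPM in wild-type (1.48, SE 0.088, adjusted p = 5.31e-08). *htz-1* was at 37.7 and 31.5 RPM in *simr-1*, against 11.05 and 11.5 RPM in wild-type (1.11, SE 0.124, adjusted p = 9.41e-06), and was no longer called without wild-type replicate 1 or *simr-1* replicate 1 (0.98 in both cases), or under a stricter filter on low counts (0.88) or with all 10 groups in 1 fit (0.86). *his-71* had 2.79 and 2.72 RPM in *simr-1* and 0.921 and 0.148 RPM in wild-type, below the minimum level. The linker histone *his-24* was the exception, with 965 and 1015 RPM in *simr-1* and 834 and 821 RPM in wild-type. Its fitted change of -0.22 (SE 0.045, adjusted p = 0.00115) became 0.26 when libraries were scaled to mapped reads, a scaling that also moved the median of all genes to 0.37 from -0.10.

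The low oocyte markers of wild-type at generation 1 were measured in mRNA libraries, which are other samples than the small RNA libraries of that group. Among the small RNAs of the marker genes themselves, 6 of 6 germline and 6 of 7 oocyte markers also rose in *simr-1* at generation 1, where 17.5% of all genes did. When *simr-1* generation 1 was set against wild-type of generation 7 instead, a comparison added after seeing the data, no member was called (8.57% of all genes were) although 6 of 7 had an unadjusted p under 0.05, and the log2 fold changes were 0.13 for *hcp-3*, 0.08 for *cpar-1*, 0.23 for *htz-1* and 0.33 for *his-72*. Against wild-type of generation 10 no member was called by edgeR either, where 12.8% of all genes were and 5 of 6 members had an unadjusted p under 0.05. The log2 fold changes were larger than against generation 7, at 0.76 for *hcp-3*, 0.54 for *cpar-1*, 0.55 for *htz-1* and 0.79 for *his-72*.

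At the later generations fewer members were called. At generation 2, 2 of 7 members rose (1.79% of all genes did): *hcp-3* was at 204 and 156 RPM in *simr-1*, against 69.01 and 63.8 RPM in wild-type (log2 fold change 1.06, SE 0.120, adjusted p = 8.58e-06), and *his-72* was at 49.6 and 42.4 RPM in *simr-1*, against 17.8 and 16.1 RPM in wild-type (1.07, SE 0.130, adjusted p = 1.74e-05). The groups did not overlap for either gene, but *hcp-3* was not called without *simr-1* replicate 1 (0.93), and neither gene was called when a difference from wild-type of generation 1 was also required. *htz-1* (0.77) and *cpar-1* (0.71) passed the p-value limit alone, and were called as well with libraries scaled to mapped reads (1.13 and 1.07), while *his-24* (0.10), *his-71* (0.67) and *hil-1* (-1.64) did not pass it. At generation 7 no member was called by edgeR or DESeq2 (8.97% of all genes were by edgeR), with 6 of 7 at an unadjusted p under 0.05, and *his-72* came nearest, with 93.7 and 90.9 RPM in *simr-1*, against 49.1 and 53.6 RPM in wild-type (0.75, SE 0.067, adjusted p = 1.15e-07). The other members above the minimum level were at 0.30 (*htz-1*), 0.18 (*hcp-3*), 0.13 (*cpar-1*) and 0.32 (*his-24*), and those below it at 1.39 (*his-71*) and -2.61 (*hil-1*). At generation 10 *his-72* was the only one of 6 members tested that rose (1.24% of all genes did), with 72.2 and 78.6 RPM in *simr-1*, against 33.6 and 34.2 RPM in wild-type (1.09, SE 0.081, adjusted p = 9.84e-07). In the same generation *hcp-3* was at 469 and 456 RPM in *simr-1* and 262 and 287 RPM in wild-type (0.69), and *cpar-1* at 55.5 RPM in both *simr-1* libraries and 34.4 and 35.7 RPM in wild-type (0.60), and *htz-1* (0.56), *his-24* (0.23) and *his-71* (0.21) differed by less.

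Counted over conditions, the 2 *simr-1* libraries were above both wild-type libraries in RPM in all 5 conditions for *htz-1*, *hcp-3*, *cpar-1*, *his-24* and *his-72*, and in 3 for *his-71*, whereas for *hil-1*, on counts of a few reads, they were below both in 3. Over all genes tested, *simr-1* libraries lay wholly above wild-type for 38.7% at 20°C, 49.5% at generation 1, 47.3% at generation 2, 41.5% at generation 7 and 39.7% at generation 10, and wholly below for 30.4%, 33.9%, 28.8%, 33.2% and 40.3% in the same order.

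The mRNAs of the 7 genes split into groups at generation 1: CENP-A mRNAs rose in *simr-1* and those of *his-24*, *his-71* and *hil-1* fell. Of the 7 members 5 were called, 2 higher and 3 lower, against 7.98% of all genes that rose and 21.7% that fell. *cpar-1* mRNA was at 72.6, 63.7 and 86.1 CPM in *simr-1*, against 30.1, 30.6 and 28.9 CPM in wild-type (log2 fold change 1.36, SE 0.095, adjusted p = 1.22e-10). *hcp-3* was at 133, 123 and 149 CPM in *simr-1*, against 69.3, 66.9 and 67.4 CPM in wild-type (1.04, SE 0.073, adjusted p = 1.53e-10), a call lost without *simr-1* replicate 3 (0.96) or with libraries scaled to their size alone (0.91). The groups did not overlap for either gene. *hil-1* mRNA was at 11.4, 10.3 and 13.9 CPM in *simr-1*, against 40.5, 41.2 and 41.2 CPM in wild-type (-1.72, SE 0.101, adjusted p = 9.10e-12). *his-24* was at 18.4, 13.5 and 15.5 CPM in *simr-1*, against 40.7, 45.0 and 49.7 CPM in wild-type (-1.45, SE 0.108, adjusted p = 3.21e-10). *his-71* was at 21.8, 19.9 and 24.9 CPM in *simr-1*, against 54.6, 53.1 and 52.7 CPM in wild-type (-1.21, SE 0.086, adjusted p = 1.54e-10). For these 3 genes every *simr-1* library was below every wild-type library. *htz-1*, with 452 to 516 CPM in *simr-1* and 300.3 to 310.4 CPM in wild-type (0.72, adjusted p = 2.05e-08), and *his-72*, with 252 to 284 CPM in *simr-1* and 200.2 to 219 CPM in wild-type (0.42, adjusted p = 2.22e-05), did not reach 2-fold.

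**Figure D2:**
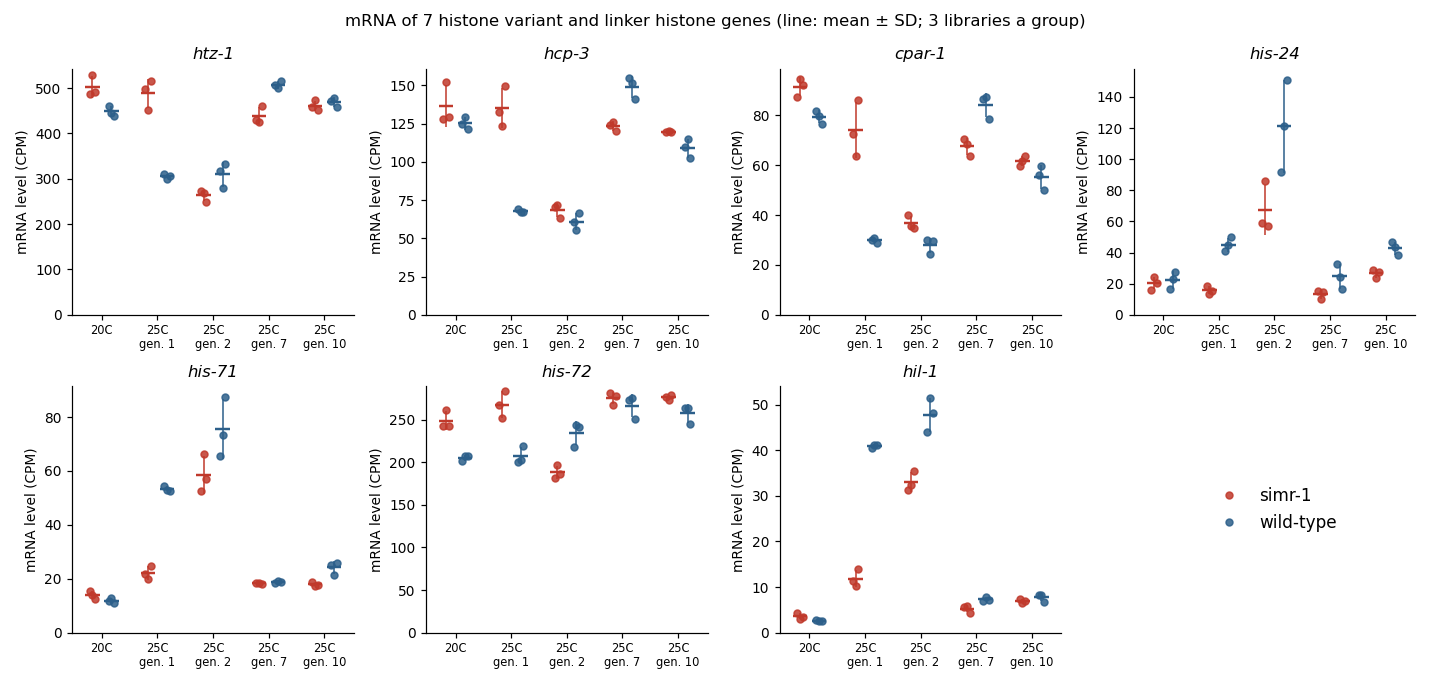
mRNA level (CPM, linear axis) of each member by temperature and generation, with *simr-1* in red left of wild-type in blue. Points are single libraries and the line is the mean ± SD of 3 libraries. In wild-type, *his-71* and *hil-1* stand high at generations 1 and 2 (*hil-1* 40.5 to 51.4 CPM) and low at 20°C and generations 7 and 10 (*hil-1* 2.58 to 8.31 CPM).

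As for the small RNAs, the mRNA differences at generation 1 changed with the wild-type group used as control. Wild-type of generation 1 differed from *simr-1* in the oocyte and muscle markers given above, and the part of these markers was not tested. Against wild-type of generation 7 none of the 7 members was called by edgeR (4.75% of all genes were), 3 had an unadjusted p under 0.05, and all 5 calls were lost. The sign turned for *hil-1* (0.69), *his-71* (0.24), *cpar-1* (-0.19) and *hcp-3* (-0.15), while *his-24* kept its direction (-0.64). Against wild-type of generation 10 only *his-24* was called (-1.36), among 24.4% of all genes. *cpar-1* (0.49), *hcp-3* (0.38) and *his-71* (-0.047) then kept their direction and *hil-1* did not (0.69).

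In the other conditions no member's mRNA was called between genotypes by edgeR or DESeq2. Of all genes edgeR called 3.1% at 20°C, 17.7% at generation 2, 9.33% at generation 7 and 11.2% at generation 10, and of the 7 members 4, 6, 5 and 4 had an unadjusted p under 0.05 in these conditions. At 20°C the log2 fold changes lay between -0.14 (*his-24*) and 0.43 (*hil-1*). *his-24* was nonetheless below wild-type at each 25°C generation. It was at 59.2, 85.7 and 56.9 CPM in *simr-1*, against 91.5, 121 and 151 CPM in wild-type at generation 2 (-0.80, SE 0.197, adjusted p = 0.00841). It was at 15.3, 9.89 and 14.9 CPM in *simr-1*, against 32.9, 24.5 and 16.8 CPM in wild-type at generation 7 (-0.91, SE 0.235, adjusted p = 0.0222), and at 28.6, 23.6 and 27.5 CPM in *simr-1*, against 46.8, 43.4 and 38.4 CPM in wild-type at generation 10 (-0.69, SE 0.089, adjusted p = 9.41e-06). All *simr-1* libraries were below all wild-type libraries in these generations, as they were for 28.6%, 19.5% and 30.8% of all genes tested at generations 2, 7 and 10. Single libraries decided which side of the 2-fold limit it lay on, since *his-24* was called at generation 2 without *simr-1* replicate 2 (-1.02) and at generation 7 without wild-type replicate 3 (-1.11) or *simr-1* replicate 1 (-1.05). The 6 other members lay between -0.48 (*hil-1*) and 0.46 (*cpar-1*) at generation 2, between -0.46 (*hil-1*) and 0.04 (*his-72*) at generation 7 and between -0.44 (*his-71*) and 0.15 (*cpar-1*) at generation 10. At generation 7 genotype and the share of reads mapped, which was 92.9% to 93.5% in *simr-1* and 97.8% to 97.9% in wild-type, cannot be told apart. This share also set wild-type generation 7 apart from wild-type generation 1 (92.7% to 93.4%) and 20°C (92.7% to 93.6%). In *simr-1* generation 1 it was 93.3% in replicates 1 and 2 but 97.7% in replicate 3.

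**Figure D3:**
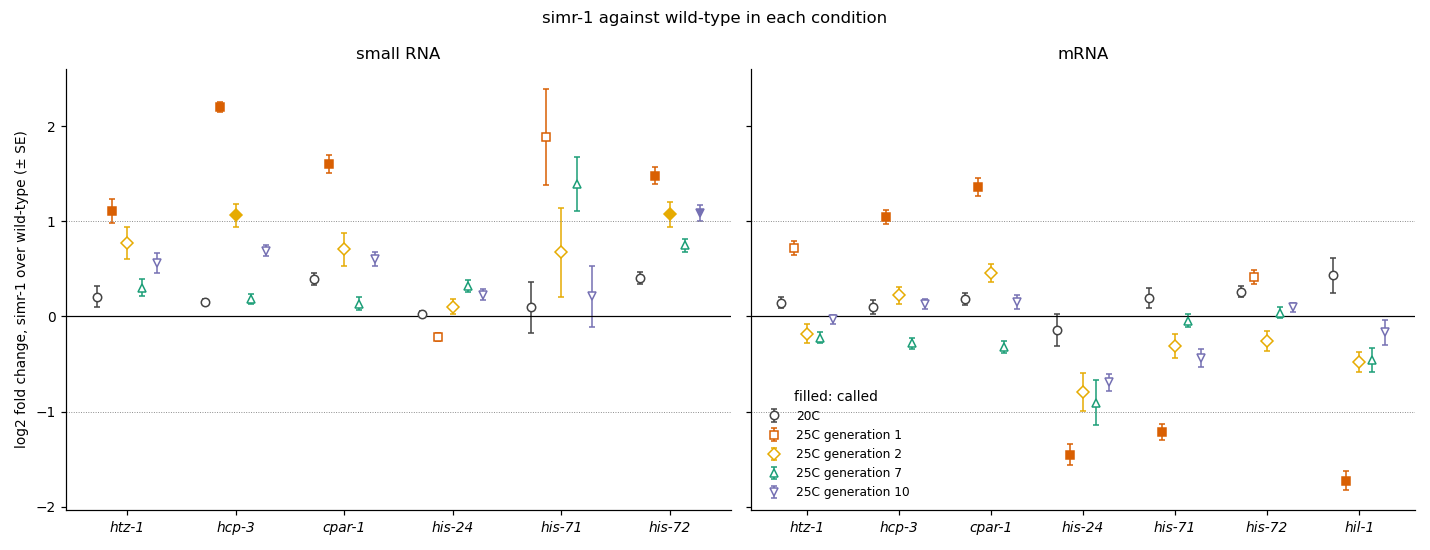
Log2 fold change of *simr-1* over wild-type (± SE, edgeR) for each member in each condition, for small RNAs on the left and mRNA on the right. Filled symbols are called genes, and dotted lines mark 2-fold. *hil-1* small RNAs are not plotted. At generation 1 *his-24* lies at -1.45 in mRNA and -0.22 in small RNAs, while *hcp-3* lies at 1.04 in mRNA and 2.2 in small RNAs.

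In wild-type animals, members changed in both kinds of RNA between generation 1 at 25°C and 20°C. Small RNAs of both CENP-A genes fell, among 6 members tested, while 6.71% of all genes fell. *hcp-3* was at 87.0 and 86.5 RPM at generation 1, against 665 and 667 RPM at 20°C (log2 fold change -2.07, SE 0.045, adjusted p = 1.34e-16), and *cpar-1* at 14.0 and 14.6 RPM at generation 1, against 55.6 and 61.5 RPM at 20°C (-1.16, SE 0.112, adjusted p = 6.65e-08). The other members were at -0.51 for *his-72*, -0.17 for *htz-1*, 0.11 for *his-24* and -1.54 for *his-71*, the last below the minimum level, and 5 of the 6 passed the p-value limit. On the scale of mapped reads the median over all genes was -0.79, against 0.07 with TMM, and *his-72* (-1.38) and *htz-1* (-1.03) were called as well, with *his-24* at -0.75. In mRNA 4 of 7 members were called, where 32.6% of all genes rose and 8.5% fell. *hil-1* was at 40.5, 41.2 and 41.2 CPM at generation 1, against 2.76, 2.59 and 2.58 CPM at 20°C (4.04, SE 0.111, adjusted p = 2.40e-14), the largest change of any member. *his-71* was at 54.6, 53.1 and 52.7 CPM at generation 1, against 11.8, 12.99 and 10.9 CPM at 20°C (2.24, SE 0.089, adjusted p = 1.91e-12). *his-24* also rose (1.12, SE 0.132, adjusted p = 1.11e-06), a call lost without wild-type 20°C replicate 1 (0.97). *cpar-1* mRNA fell, with 30.1, 30.6 and 28.9 CPM at generation 1, against 81.98, 79.97 and 76.7 CPM at 20°C (-1.32, SE 0.072, adjusted p = 9.37e-11). *hcp-3* (-0.80) and *htz-1* (-0.46) mRNA passed the p-value limit alone. *his-72* mRNA, at 200.2, 202 and 219 CPM at generation 1 and 201, 207 and 207 CPM at 20°C, overlapped between the temperatures. The sum of oocyte markers was 2049 to 2454 CPM at generation 1 and 7867 to 9821 CPM at 20°C, and its part in these changes was not tested.

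Wild-type levels at the later generations were set against those of generation 1. For the mRNA of generation 7, the change over generations and the share of reads mapped given above cannot be told apart. Between generations 2 and 1 no member's small RNAs were called by edgeR or DESeq2 (0.704% of all genes were by edgeR), with 1 of 7 at an unadjusted p under 0.05 and values between -0.34 (*hcp-3*) and 0.87 (*his-71*), and in mRNA only *his-24* rose, with 91.5, 121 and 151 CPM at generation 2, against 40.7, 45.0 and 49.7 CPM at generation 1 (log2 fold change 1.503, SE 0.162, adjusted p = 0.000213), where 7.49% of all genes rose. The other mRNAs lay between -0.08 (*hcp-3*) and 0.57 (*his-71*). At generation 2 the *hcp-3* small RNAs (69.01 and 63.8 RPM) and the mRNAs of *his-71* (65.5 to 87.5 CPM) and *hil-1* (43.9 to 51.4 CPM) were therefore no nearer to 20°C than at generation 1. Between generations 7 and 1 small RNAs rose at *hcp-3* (1.72, SE 0.059, adjusted p = 1.49e-09) and *cpar-1* (1.179, SE 0.109, adjusted p = 3.40e-06) and 3.66% of all genes, with the other members between -0.32 (*hil-1*) and 0.80 (*his-72*). The mRNAs of *hcp-3* (1.16, but 0.99 and not called with libraries scaled to their size alone) and *cpar-1* (1.52) rose too, as did 9.08% of all genes, whereas those of *his-71* (-1.48) and *hil-1* (-2.44) fell, as did 23%, and *his-24* mRNA (-0.84) was called only without wild-type generation 7 replicate 1 (-1.14), with *htz-1* at 0.76 and *his-72* at 0.39. Between generations 10 and 1 no member's small RNAs were called by edgeR (10.6% of all genes were), although 5 of 6 had an unadjusted p under 0.05 and *hcp-3* lay at the limit (0.9997 by edgeR, and called at 1.01 by DESeq2 or without wild-type generation 10 replicate 1), while the mRNAs of *his-71* (-1.26) and *hil-1* (-2.51) fell along with 14.5% of all genes. The other small RNAs lay between -0.89 (*his-24*) and 1.30 (*his-71*, below the minimum level) and the other mRNAs between -0.19 (*his-24*) and 0.78 (*cpar-1*). With generation 7 or 10 in place of generation 1 against 20°C, added after seeing the data, only *hil-1* mRNA was called (1.46 at generation 7 and 1.45 at generation 10), where 12.9% and 34.1% of all genes were called. No member's small RNAs were called by edgeR at generation 7 (9.97% of all genes were, and 5 of 7 members had an unadjusted p under 0.05) or generation 10 (15.8% of all genes, and 3 of 6 members). *hil-1* mRNA was thus above its 20°C level in all 4 generations at 25°C, at 6.75 to 8.31 CPM at generations 7 and 10.

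In *simr-1* mutants few members were called at generation 1 and more between generations 2 and 1. Between generation 1 and 20°C no member's small RNAs were called by edgeR or DESeq2 (4.52% of all genes were by edgeR), although 5 of 7 had an unadjusted p under 0.05, and in mRNA *hil-1* alone rose, with 11.4, 10.3 and 13.9 CPM at generation 1, against 4.26, 3.03 and 3.50 CPM at 20°C (log2 fold change 1.74, SE 0.154, adjusted p = 6.71e-08), where 10.4% of all genes rose. The small RNAs lay between -0.47 (*his-24*) and 0.41 (*htz-1*), apart from *hil-1* on few reads (-2.01), and the other mRNAs between -0.33 (*his-24*) and 0.70 (*his-71*). Between generations 2 and 1 *hcp-3* small RNAs fell, with 204 and 156 RPM at generation 2, against 563 and 549 RPM at generation 1 (-1.29, SE 0.094, adjusted p = 2.38e-07), where 0.468% of all genes fell, and *cpar-1* missed the limit at -0.92 but was called without *simr-1* generation 2 replicate 1 (-1.09). The other small RNAs lay between -0.26 (*his-72*) and 0.44 (*his-24*). In mRNA 5 of 7 members changed between these generations, where 26.4% of all genes rose and 10.2% fell. *his-24* rose, with 59.2, 85.7 and 56.9 CPM at generation 2, against 18.4, 13.5 and 15.5 CPM at generation 1 (2.05, SE 0.148, adjusted p = 3.72e-09), *hil-1* rose by 1.43 and *his-71* by 1.36. *hcp-3* (-1.02) and *cpar-1* (-1.04) fell, although neither was called without *simr-1* generation 1 replicate 3 (-0.94 for *hcp-3* and -0.91 for *cpar-1*) or generation 2 replicate 3 (-0.96 for *hcp-3* and -0.9995 for *cpar-1*) or with libraries scaled to their size alone (-0.70 and -0.72), and *htz-1* (-0.92) and *his-72* (-0.54) passed the p-value limit alone. The sum of oocyte markers was 2994 to 3765 CPM in *simr-1* at generation 2 and 8427 to 8829 CPM at generation 1. Between generations 7 and 1 no member's small RNAs were called by edgeR or DESeq2 (2.34% of all genes were by edgeR), with 3 of 6 at an unadjusted p under 0.05, and *hil-1* mRNA fell (-1.13, adjusted p = 3.98e-05), where 1.99% of all genes fell, but not without *simr-1* generation 1 replicate 3 (-0.996). The small RNAs lay between 0.03 (*hcp-3*) and 0.65 (*his-24*) and the other mRNAs between -0.27 (*his-71*) and 0.06 (*his-72*). Between generations 10 and 1 no member was called by either tool in small RNAs (5.12% of all genes were by edgeR, and 2 of 6 members had an unadjusted p under 0.05) or mRNA (13.8% of all genes, and 5 of 7 members). The small RNAs lay between -0.09 (*hcp-3*) and 0.27 (*his-72*) and the mRNAs between -0.82 (*hil-1*) and 0.71 (*his-24*).

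Across all 30 mRNA libraries, *htz-1*, *hcp-3*, *cpar-1*, *his-71* and *hil-1* followed the split in oocyte markers. The share of all genes that did so was not counted, so this cannot be called particular to these genes. Comparisons that cross this split called many genes, 41.1% between wild-type generation 1 and 20°C and 36.6% between *simr-1* generations 2 and 1. *htz-1* was at 249 to 333 CPM in the 9 libraries with low markers, against 425 to 529 CPM in the other 21. *hcp-3* and *cpar-1* were at 55.2 to 71.5 CPM and 24.3 to 40.04 CPM in the 9 libraries with low markers, against 102 to 154 CPM and 50.2 to 94.7 CPM in the other 21, without overlap. *his-71* was at 52.5 to 87.5 CPM in the 9 libraries and 10.9 to 26.03 CPM in the other 21, and *hil-1* at 31.2 to 51.4 CPM and 2.58 to 13.9 CPM. The oocyte markers separated these libraries in the same way, and their part in the levels was not tested. *his-72* varied least: its group means spanned 189 to 276 CPM, a ratio of 1.46, against 18.1 for *hil-1*, 9.08 for *his-24*, 6.36 for *his-71*, 3.28 for *cpar-1*, 2.45 for *hcp-3* and 1.92 for *htz-1*.

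**Figure D4:**
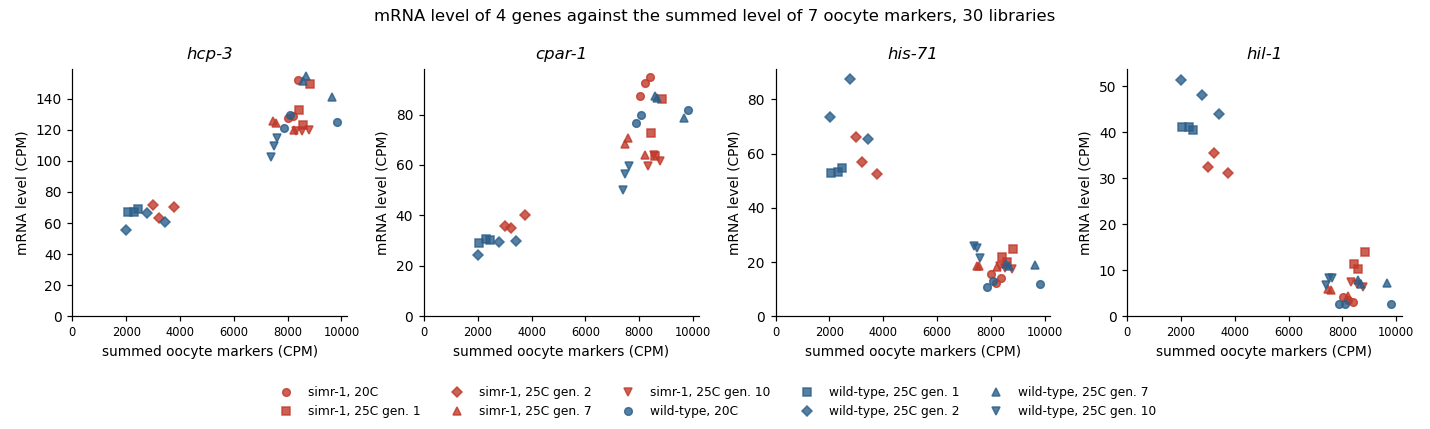
mRNA level (CPM) of *hcp-3*, *cpar-1*, *his-71* and *hil-1* against the summed level of 7 oocyte markers (CPM) in each of 30 libraries, with *simr-1* in red and wild-type in blue and 1 symbol per condition. The 9 libraries of wild-type generations 1 and 2 and *simr-1* generation 2 lie at 2007 to 3765 CPM of oocyte markers.

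The difference in the *simr-1* effect between conditions was tested as an interaction, with the same limits. Between generation 1 and 20°C the effect on small RNAs was greater for *hcp-3* (difference in log2 fold change 1.92, adjusted p = 2.40e-14) and *cpar-1* (1.08, adjusted p = 4.11e-07), where 8.05% of all genes had a greater effect at these limits. The *cpar-1* call was lost without the filter on low counts (0.9032), with a stricter one (0.92) and with all 10 groups in 1 fit (0.95), and with libraries scaled to mapped reads *htz-1* (1.31) and *his-72* (1.46) were called as well. The effect on mRNA differed for *cpar-1* (1.13), *his-24* (-1.36), *his-71* (-1.45) and *hil-1* (-2.2), where 23% of all genes were called, and *cpar-1* was not called without *simr-1* generation 1 replicate 3 (0.99) or with libraries scaled to their size alone (0.95). Between generation 10 and generation 1 the effect differed for *hcp-3* small RNAs (-1.37), where 7.23% of all genes had a smaller effect at these limits, and for the mRNAs of *cpar-1* (-1.06) and *hil-1* (1.71), where 18.6% were. Without *simr-1* generation 1 replicate 3, *cpar-1* was not called in this last test (-0.93) and *his-71* was (1.03), and without *simr-1* generation 1 replicate 1 *his-24* was (1.04). All of these contrasts use the wild-type libraries of generation 1.

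Among the single small RNA libraries at 20°C, *his-24* behaved unlike the other members. With 1 library per strain there was no test, and the intervals given are exact 95% intervals of the counting error only. *his-24* small RNAs were at 159 RPM (148 to 172) in *mut-16*, 444 RPM (426 to 462) in *nyn-2; nyn-1* and 465 RPM (451 to 480) in *wago-1*, against 1316 RPM (1307 to 1324) in wild-type. These are ratios of 0.121, 0.337 and 0.353 for the loss of a *mutator* scaffold, a pair of NYN-domain nucleases and a WAGO Argonaute. Of the genes that reached 10 RPM in the wild-type library, 28.3% were at least 2-fold lower in *mut-16*, 22% in *nyn-2; nyn-1* and 12.3% in *wago-1*. In *rde-8*, which lacks another NYN-domain nuclease of this pathway, *his-24* was at 922 RPM (ratio 0.701), and in *rsd-2* at 1003 RPM (0.762). In *simr-1* it was at 1562 RPM (1521 to 1604, ratio 1.19) and in *simr-1; hpo-40* at 1716 RPM (1681 to 1752, ratio 1.30), the highest of the 14 libraries.

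**Figure D5:**
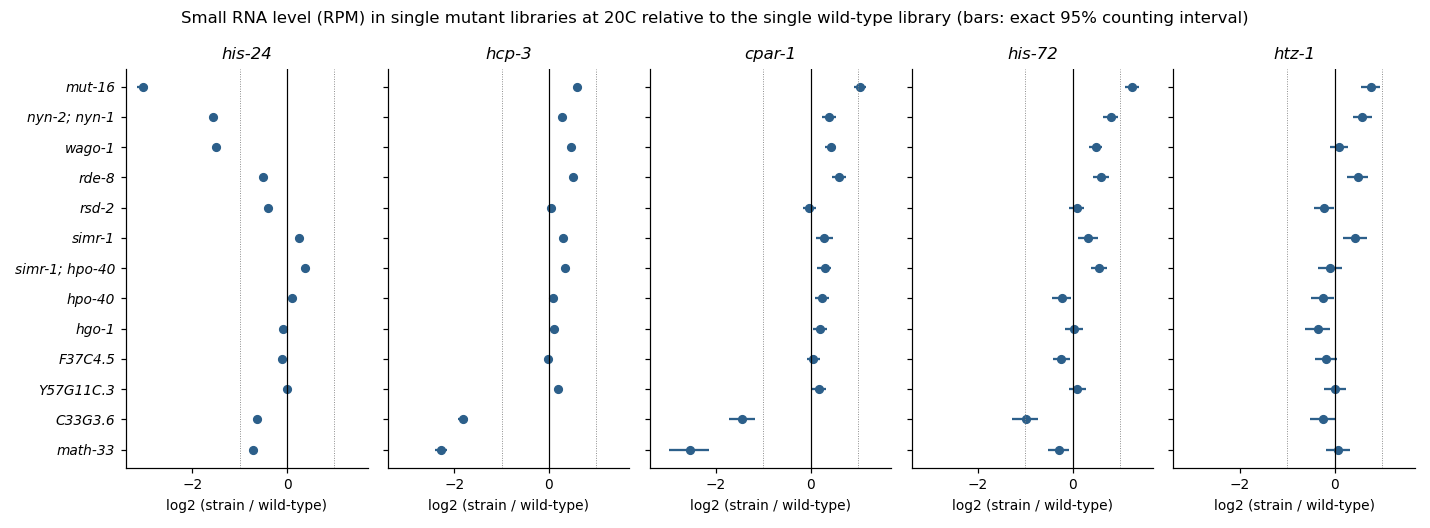
Log2 ratio of the small RNA level (RPM) in each of 13 mutant libraries to that in the single wild-type library, for the 5 members that reached 10 RPM in wild-type. Bars are exact 95% counting intervals and dotted lines mark 2-fold. In *mut-16*, *his-24* is at a ratio of 0.121 and *his-72* at 2.38.

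The other 4 members that reached 10 RPM in the wild-type library were above it in *mut-16*. *his-72* was at 102 RPM in *mut-16*, against 43.0 RPM in wild-type (ratio 2.38, interval 2.15 to 2.63), and *cpar-1* at 129 RPM, against 62.6 RPM (2.06, 1.88 to 2.25). *htz-1* was at 47.7 RPM in *mut-16*, against 28.2 RPM in wild-type (1.696, 1.46 to 1.956), and *hcp-3* at 855 RPM, against 569 RPM (1.503, 1.45 to 1.55). In all, 13% of genes were at least 2-fold higher in *mut-16*. The same 4 genes were also above wild-type, by less, in *nyn-2; nyn-1* (1.21 to 1.74) and *rde-8* (1.41 to 1.51), while *hcp-3*, *cpar-1* and *his-72* had ratios of 1.34 to 1.40 in *wago-1*, and *htz-1* 1.07 (0.939 to 1.22). Over all genes at 10 RPM or more in wild-type, the median log2 ratio was 0.43 in *mut-16*, 0.39 in *nyn-2; nyn-1*, 0.31 in *rde-8* and 0.47 in *wago-1*. In *wago-1*, *hcp-3* (0.46), *cpar-1* (0.41) and *his-72* (0.48) lay near that median and *htz-1* (0.10) below it. In *nyn-2; nyn-1*, *cpar-1* (0.38) lay near the median and *hcp-3* (0.28) below it. The other ratios of these genes in these strains lay above the medians.

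The CENP-A genes were the lowest of these members in a pair of strains. *hcp-3* was at 117 RPM in *math-33* (ratio 0.206) and 162 RPM in C33G3.6 (0.284), against 569 RPM in wild-type, and *cpar-1* at 10.7 RPM in *math-33* (0.170) and 22.9 RPM in C33G3.6 (0.366), against 62.6 RPM in wild-type. Other members were lower by less, with *his-24* at ratios of 0.609 in *math-33* and 0.640 in C33G3.6 and *his-72* at 0.815 and 0.502. *htz-1* was at 1.05 and 0.848. At least 2-fold lower were 45.8% of genes in *math-33* and 10.1% in C33G3.6, and the median log2 ratio was -0.94 and -0.37. The *math-33* animals were described as asynchronous adults, and 53.6% of mapped reads in C33G3.6 fell on genes, against 68.6% in wild-type. Of the 65 pairs of these 5 genes and 13 strains, 9 differed by at least 2-fold. *his-71* had 4 to 27 reads in the mutants and 185 in wild-type, and *hil-1* 0 to 7 and 42, where the 0 reads in *simr-1; hpo-40* allow up to 0.563 RPM, the level of 3 reads.

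Genes that work with these histones were taken as lists. At generation 1, *simr-1* small RNAs rose for 13 of 14 centromere and kinetochore genes (median log2 fold change 1.51), with *bub-1*, a checkpoint kinase (1.95), *hcp-4*, which encodes CENP-C (1.80), and *hcp-1*, a CENP-F-like protein (1.79), changed most. They rose for 6 of 7 genes of the SWR1 and NuA4 type complexes, which exchange or acetylate H2A.Z (median 1.22, with the ATPase gene *ruvb-1* at 1.62), and for 7 of 12 histone chaperone genes (median 1.04), led by *unc-85*, an ASF1 chaperone (1.98), and *hmg-3* (1.57) and *nap-1* (1.54). No gene of these 3 lists fell, and over all genes tested 17.5% rose and the median was -0.10. In mRNA the same comparison called 2 of 14 centromere genes, *rod-1* (1.11) and *knl-3* (1.02), where 7.98% of all genes rose, and none of the chaperone or SWR1 and NuA4 genes by edgeR, of which 11 of 12 and 6 of 7 had an unadjusted p under 0.05. At 20°C and at generations 7 and 10 none of these 3 lists had a gene called by edgeR in small RNAs or mRNA between genotypes, and at generation 2 only the small RNAs of *unc-85* (1.08) and *zwl-1* (1.08) rose. For the centromere genes, those with an unadjusted p under 0.05 numbered 10 to 14 of 14 in small RNAs and 4 to 13 of 14 in mRNA in these conditions. These lists moved with the same wild-type libraries: between wild-type generation 1 and 20°C, small RNAs fell at 6 of 14 centromere genes (median -0.90), 3 of 12 chaperones and 1 of 7 SWR1 and NuA4 genes, where 6.71% of all genes fell. In *simr-1* mRNA between generations 2 and 1, 13 of 14 centromere genes, 5 of 12 chaperones and 2 of 7 SWR1 and NuA4 genes fell, where 10.2% of all genes did.

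Other linker histone and H3.3-like genes were less uniform. *hil-4* followed the CENP-A genes, with small RNAs of 193 RPM on average in *simr-1* at generation 1, against 40.1 RPM in wild-type (log2 fold change 1.80), and mRNA of 377 CPM, against 154 CPM (1.34). *hil-7* and *hil-3* mRNA fell in the same comparison, *hil-7* with 1.45 CPM on average in *simr-1*, against 9.18 CPM in wild-type (-2.61), and *hil-3* with 6.05 CPM, against 16.4 CPM (-1.40). Among the H3.3-like genes *his-74* small RNAs rose, with 111 RPM in *simr-1*, against 28.8 RPM in wild-type (1.47), while its mRNA (221 CPM in *simr-1*, against 115 CPM in wild-type) missed the 2-fold limit at 0.99.

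The genes whose mRNA pattern was most like that of each member were found among 7819 genes by the Pearson correlation of log2 levels over the 30 libraries, which fall into the clusters described above. *hcp-3* was nearest to *knl-3* (r = 0.99) and C08F8.3 (0.99), and *cpar-1* to *ran-1* (0.99) and *gln-5* (0.99). *htz-1* was nearest to Y92H12BR.3 (0.98) and *rsp-2* (0.98). *his-24* was nearest to the linker histone gene *hil-3* (0.95) and *cec-1* (0.94). *his-71* was nearest to *spp-1* (0.98) and *skr-19* (0.98), and *hil-1* to C36B1.6 (0.99) and *skr-19* (0.99). *his-72* had no close neighbour, with *clec-265* at 0.83 and *enu-3.5* at 0.82. Between members, r was 0.97 for *hcp-3* with *cpar-1* and 0.97 for *his-71* with *hil-1*, but -0.45 for *his-71* with *his-72*.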

How the data were processed

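Small RNAs were sequenced in 34 libraries and poly(A) RNA in 30, from whole day 1 adults. For small RNAs the authors mapped reads to genome WS258 with Bowtie2 and counted them on exons with featureCounts of Subread, dividing ties, and the deposited values are expected counts without normalization. For mRNA, read trimming used Cutadapt and the methods name both HISAT2 and Salmon; the values deposited by the authors are estimated counts, listed by sequence name. Which of those 2 tools gave them is not given in the sources used here. Names repeated in the mRNA tables (1066 of 46970 lines) were summed, and 45648 names were matched to a gene ID. The depth of each kind of library is given with the results, and a level of 10 RPM rests on fewer reads in the smaller libraries, where changes near it are less precise. Counts were rounded and tested with edgeR 4.0.16 in R 4.3.3 (quasi-likelihood test, TMM, Benjamini-Hochberg adjustment over all genes tested) with the compared groups alone in the fit and no replicate block. Genes entered a test when their counts in its libraries added up to 10 or more. The test was checked on simulated data, in which it recovered 100% of 200 genes changed 4-fold in both the small RNA and the mRNA comparison at 20°C. The changed genes were drawn above a minimum level and the simulated spread was the same for all genes. This check therefore does not bear on changes near 2-fold or levels near 10 RPM. Small RNA levels are per 1000000 mapped reads, taken from the study's sequencing statistics, and mRNA levels are TMM CPM over all 30 libraries. For wild-type small RNAs at 20°C, those statistics list totals under the same description for 2 sets of libraries, and the set with 2 replicates was used, so the RPM of that group rests on this match while its fold changes under TMM do not. Ratios of single libraries carry exact binomial intervals, and their log2 values, where compared across settings, a pseudocount of 0.5 RPM. Correlations used log2(CPM + 0.5) of genes with at least 10 CPM on average. Sequences were read from the reference genome, whose coordinates for these genes were checked against those of the tables.

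All 7 members are accounted for in every comparison of pairs of groups, those not called by value or range, with, for each gene list, at most the 3 called genes of largest change, and for each member the 2 most correlated genes. *unc-85* and *zwl-1* at generation 2 and *ruvb-1*, *hil-4*, *hil-7*, *hil-3*, *his-74*, *rod-1* and *knl-3* fall under this rule. The members and the lists were chosen with earlier results of these data known. Same-numbered mRNA libraries deviated together between genotypes at generation 7 (correlations of 0.41, 0.47 and 0.65) and generation 10 (0.22, 0.10 and 0.31). At generation 2 the correlations were 0.66, 0.28 and 0.05 in mRNA and 0.36 in small RNAs. Same-numbered libraries were treated as pairs in an alternative, and the labels do not say what a shared number marks. Alternatives were DESeq2 1.42.0, its size factors in edgeR, library size only, other filters, no fold or RPM limit, a replicate block, all 10 groups in 1 fit, other controls and leaving out each library.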

Additional observations from a re-analysis of the deposited data

Results flagged for a closer look

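The effect of *simr-1* differed between conditions, by a test of the difference itself, for 5 of the 7 genes, in 9 results of 28. Over all genes, the tests of generation 1 against 20°C called 14.9% in small RNAs and 23% in mRNA. Those of generation 10 against generation 1 called 10.7% and 18.6%. Between generation 1 at 25°C and 20°C the difference in log2 fold change was 1.92 for *hcp-3* and 1.08 for *cpar-1* in small RNAs, the *cpar-1* call being lost under 3 other settings (0.9032 to 0.95). In mRNA it was 1.13 for *cpar-1*, -1.36 for *his-24*, -1.45 for *his-71* and -2.20 for *hil-1*. Between generations 10 and 1 it was -1.37 for *hcp-3* in small RNAs, and -1.06 for *cpar-1* and 1.71 for *hil-1* in mRNA. The wild-type group of generation 1 enters all 9, and its mRNA libraries, which are other samples than its small RNA libraries, had low oocyte marker levels. Their part in these differences was not tested.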

How the results depend on the processing

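Counts below are of the 7 genes called unless stated, with the reported count in brackets. With other wild-type controls, chosen after seeing the data, *simr-1* generation 1 set against wild-type of generation 7 gave 0 in small RNAs [4] and 0 in mRNA [5], and against wild-type of generation 10 gave 0 and 1. Against wild-type of generation 7 the log2 fold change in mRNA changed sign for *htz-1* (-0.062), *hcp-3* (-0.15), *cpar-1* (-0.19), *his-71* (0.24) and *hil-1* (0.69), and against wild-type of generation 10 it did for *hil-1* mRNA (0.69) and *his-24* small RNAs (0.23). With generation 7 or generation 10 in place of generation 1, wild-type against 20°C gave 0 in small RNAs [2] and 1 in mRNA [4] in both cases. Signs changed at generation 7 for the small RNAs of *htz-1* (0.36), *cpar-1* (0.012), *his-72* (0.29) and *his-24* (-0.11) and the mRNAs of *htz-1* (0.15), *hcp-3* (0.23) and *cpar-1* (0.058), and at generation 10 for *his-24* small RNAs (-0.56). When a difference from wild-type of generation 1 was also required, the small RNA count at generation 2 was 0 [2]. With a term for the share of reads mapped, also chosen after seeing the data, *simr-1* mRNA between generations 7 and 1 gave 0 [1].

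Scaling to library size alone gave 4 small RNA calls between genotypes at generation 2 [2], 4 for wild-type generation 1 against 20°C [2], 4 for wild-type generation 7 against 1 [2], 2 for wild-type generation 10 against 1 [0], 2 for *simr-1* generation 2 against 1 [1], and 4 [2] and 2 [1] for the differences in effect, with 3 in *simr-1* mRNA between generations 2 and 1 [5]. *his-24* small RNAs changed sign under it at generation 1, to 0.26 between genotypes, -0.75 against 20°C in wild-type and 0.15 for the difference in effect, and to 0.50 for wild-type generation 7 against 1. Under this scaling *hcp-3* mRNA between genotypes at generation 1 was not called (0.91). Over all genes it raised the small RNA calls between genotypes at generation 2 to 2597 from 1544, those of wild-type generation 1 against 20°C to 4686 from 2236, generation 7 against 1 to 4252 from 1289 and generation 10 against 1 to 2780 from 1482, those of *simr-1* generation 2 against 1 to 986 from 353, and the differences in effect to 4206 from 2524 and to 4179 from 1709. It also moved the split of higher and lower genes, between genotypes at generation 1 to 4046 and 1032 small RNA genes from 2512 and 1316, in *simr-1* mRNA between generations 2 and 1 to 6048 and 506 from 4531 and 1751, and in wild-type mRNA between generations 10 and 1 to 3430 and 1937 from 2838 and 2489.

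DESeq2, its size factors in edgeR and no filter on low counts each called 1 gene, *hcp-3*, in wild-type small RNAs between generations 10 and 1 [0], and without the filter the difference in effect on small RNAs between generation 1 and 20°C gave 1 [2]. With filterByExpr or all 10 groups in 1 fit that difference gave 1 [2] and *simr-1* mRNA between generations 2 and 1 gave 3 [5], and with all groups wild-type small RNAs between generations 7 and 1 gave 1 [2]. *htz-1* small RNAs at generation 1 were not called in these fits (0.88 with filterByExpr and 0.86 with all groups). Without the minimum RPM, 2 were called between genotypes in small RNAs at generation 7 [0], *his-71* (1.39) and *hil-1* (-2.61).

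Without the fold-change limit, small RNA calls between genotypes were 3 at 20°C [0], 4 at generation 2 [2], 4 at generation 7 [0] and 5 at generation 10 [1], and mRNA calls 1 [0], 3 [0], 5 [0] and 2 [0] at the same points. In wild-type they were 4 for small RNAs of generation 1 against 20°C [2], 5 of generation 7 against 1 [2] and 3 of generation 10 against 1 [0], and for mRNA 4 of generation 2 against 1 [1], 7 of generation 7 [4] and 6 of generation 10 [2]. In *simr-1* they were 5 for small RNAs of generation 1 against 20°C [0], then 4 [1], 2 [0] and 1 [0] of generations 2, 7 and 10 against 1, and for mRNA 3 of generation 1 against 20°C [1], 2 of generation 7 against 1 [1] and 5 of generation 10 [0]. Differences in effect were 5 [2] and 3 [1] in small RNAs and 6 [2] in mRNA between generations 10 and 1.

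Leaving out each library in turn gave 3 to 4 small RNA calls between genotypes at generation 1 and 1 to 2 at generation 2, and 4 to 5 mRNA calls at generation 1, 0 to 1 at generation 2 and 0 to 1 at generation 7. It gave 0 to 1 in wild-type small RNAs between generations 10 and 1, 3 to 4 in wild-type mRNA between generation 1 and 20°C, 4 to 5 between generations 7 and 1, 1 to 2 in *simr-1* small RNAs and 3 to 5 in *simr-1* mRNA between generations 2 and 1, 0 to 1 in *simr-1* mRNA between generations 7 and 1, and 3 to 4 and 2 to 3 for the differences in effect on mRNA. A small RNA group reduced to 1 library was assumed to vary like the other groups. A replicate block changed the side of no call of these genes, and left 4 small RNA and 5 mRNA calls between genotypes at generation 1, while over all genes it gave 24 calls in place of 100 in wild-type small RNAs between generations 2 and 1. Requiring a difference from wild-type of generation 1 as well left 1051 of 1837 small RNA genes at generation 10, and 946 of 1573 and 788 of 1882 mRNA genes at generations 7 and 10. Among single libraries, 9 of 65 ratios passed 2-fold with either pseudocount and on the scale of reads on genes, and 11 against the replicated wild-type. Depth limits *hil-1* and *his-71*, whose small RNA values rest on few reads.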
